A study of Mus musculus with 6 samples.

Results

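The nuclear-encoded genes of oxidative phosphorylation were taken from the deposited count table by symbol: Nduf followed by a, b, c, s or v and a number, Sdha to Sdhd, every symbol that starts with Uqcr, Cox5 to Cox8 with the subunit letters a to c (the pattern also allows Cox4, but no such symbol was in the table), and Atp5a to Atp5o. The rule took 80 of 23420 genes. Of these, 37 belong by name to complex I, 4 to complex II, 8 to complex III, 16 to complex IV and 15 to complex V. The rule itself uses no measured value, although it was chosen with earlier results of these data known. Ndufa4 was kept with complex I, where its symbol puts it, although its protein is now known as a complex IV subunit. Subunits with other symbols, such as Cox4i1 and the cytochromes Cyc1 and Cycs, are described with the other pathway genes.

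Oxidative phosphorylation takes place in the inner mitochondrial membrane. Complexes I and II pass electrons from NADH and succinate to ubiquinone, complex III passes them to cytochrome c and complex IV to oxygen, while complexes I, III and IV pump protons whose return through complex V drives ATP synthesis. A few subunits are encoded by mitochondrial DNA, and the nuclear genome encodes all others, including the whole of complex II. Endothelial cells are known to make much of their ATP by glycolysis and to use mitochondria also for biosynthesis and signalling.

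The cells came from whole mouse embryos of the strain Csf1r-iCre;RosatdTomato at embryonic day 12.5. Csf1r-iCre is a Cre recombinase driven by the promoter of Csf1r, the gene for the receptor of colony-stimulating factor 1, which is best known from myeloid cells, and RosatdTomato makes the red protein tdTomato once Cre has acted. Endothelial cells that carried PECAM1 and were negative for CD45, CD11b and KIT, which mark blood cells, were sorted on an Influx sorter into a tdTom+ fraction, with a history of Cre activity, and a tdTom- fraction without a reporter signal. Both groups thus share the strain, the age, the alleles and the other sort markers. Each group had 3 libraries, and the cells of 3 embryos were divided over both fractions, although the labels do not say which number belongs to which embryo. The p-values therefore measure the spread between these libraries. A reporter switched on by Cre under a lineage promoter marks descent or past expression and not a present cell type. The comparison asks how the tdTom+ endothelial cells differ from their tdTom- neighbours.

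Library totals ran from 8919887 to 11767956 counts. Of 13142 genes tested with edgeR, 101 were higher and 107 lower in tdTom+ at an adjusted p under 0.05, together 1.58%. None of 12 endothelial core genes, such as Pecam1 and Cdh5, passed the test, and their summed level was 8681 to 9218 CPM (counts scaled to a common library size) in tdTom+ and 8747 to 8822 CPM in tdTom-. The fractions were not free of other signals. Of the tested markers, 7 of 12 megakaryocyte genes were called higher in tdTom+ (summed 523 to 803 against 210 to 269 CPM). Vwf, which was not called, made up most of that sum in tdTom-, with a mean of 197 CPM against 248 CPM in tdTom+. Also called higher were 1 of 8 macrophage genes (90.2 to 153 against 45.6 to 59.3 CPM) and 1 of 8 erythroid genes (201 to 274 against 144 to 251 CPM). All 8 tested erythroid genes were above 0, with a median log2 fold change of 0.88. The called gene of the macrophage list was Mrc1, whose means of 91.3 against 28.1 CPM made up most of the gap in the macrophage sums. Which cells gave the Mrc1 and Vwf counts was not tested. Ptprc, Itgam and Fcgr3 had lower means in tdTom+, and Csf1r, Cd68, Lyz2, Cx3cr1 and C1qb higher ones, while Tyrobp and C1qa were nearly equal. Of 8 germ cell genes 5 were called lower in tdTom+, and of 7 muscle genes 1, while 0 of 8 hepatoblast, 0 of 11 mesenchymal and 0 of 8 neural genes were called. These last lists also leaned lower in tdTom+, with 0 of 8, 0 of 11 and 1 of 8 genes above 0 and median log2 fold changes of -1.47, -0.98 and -0.53. Their summed levels were 161 to 175 against 210 to 457 CPM, 179 to 676 against 482 to 1138 CPM and 253 to 278 against 293 to 317 CPM. Single genes carried much of 2 of these sums. Trf had means of 120 CPM in tdTom+ and 157 CPM in tdTom-, which was most of the hepatoblast sum in tdTom+. Nes, at 208 and 215 CPM, was most of the neural sum in both groups. The part of these other cells in the values below was not tested, and in bulk samples fewer cells of a type and less RNA per cell cannot be told apart.

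No gene of oxidative phosphorylation was called between tdTom+ and tdTom- cells. Of the 80 genes, 74 had enough counts for the test, and 0 of them passed at an adjusted p under 0.05 in edgeR, where 1.58% of all tested genes did, 0.769% as higher and 0.814% as lower in tdTom+. At an unadjusted p under 0.05, 2 of 74 (2.7%) passed, against 10.7% of all tested genes. Both, Ndufb8 and Atp5o, were higher in tdTom+, where 4.76% of all tested genes passed in that direction. DESeq2 also called 0 of the 74, where it called 3.68% of 13138 genes, and had 3 members at an unadjusted p under 0.05, where 11.2% of those genes were. In the authors' deposited table, 0 of the 76 members with an adjusted p were under the threshold, and those values ran from 0.292 to 0.9996.

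The intervals around these differences were narrow. The standard error of a member's log2 fold change had a median of 0.0963, against 0.188 over all tested genes. Among genes with a mean of at least 50 CPM it was 0.0935 for the members and 0.117 for all. The 95% interval of the fold change, taken gene by gene, stayed within 1.5-fold in either direction for 71 of 74 members, and within 1.2-fold for 23. The 3 members with wider intervals were Ndufs5, Cox6b2 and Atp5g2. Only Ndufs5 (log2 fold change 0.53) and Cox6b2 (-0.53) reached a size of 0.25, which is 2.7% of the members against 35.6% of all tested genes. Both had fewer than 100 counts in at least 1 library, whereas the other 72 tested members had at least 100 in every library. Among tested genes with a mean of at least 50 CPM, 12.7% of 5353 genes reached that size and 0% of the 69 members among them.

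**Figure D1:**
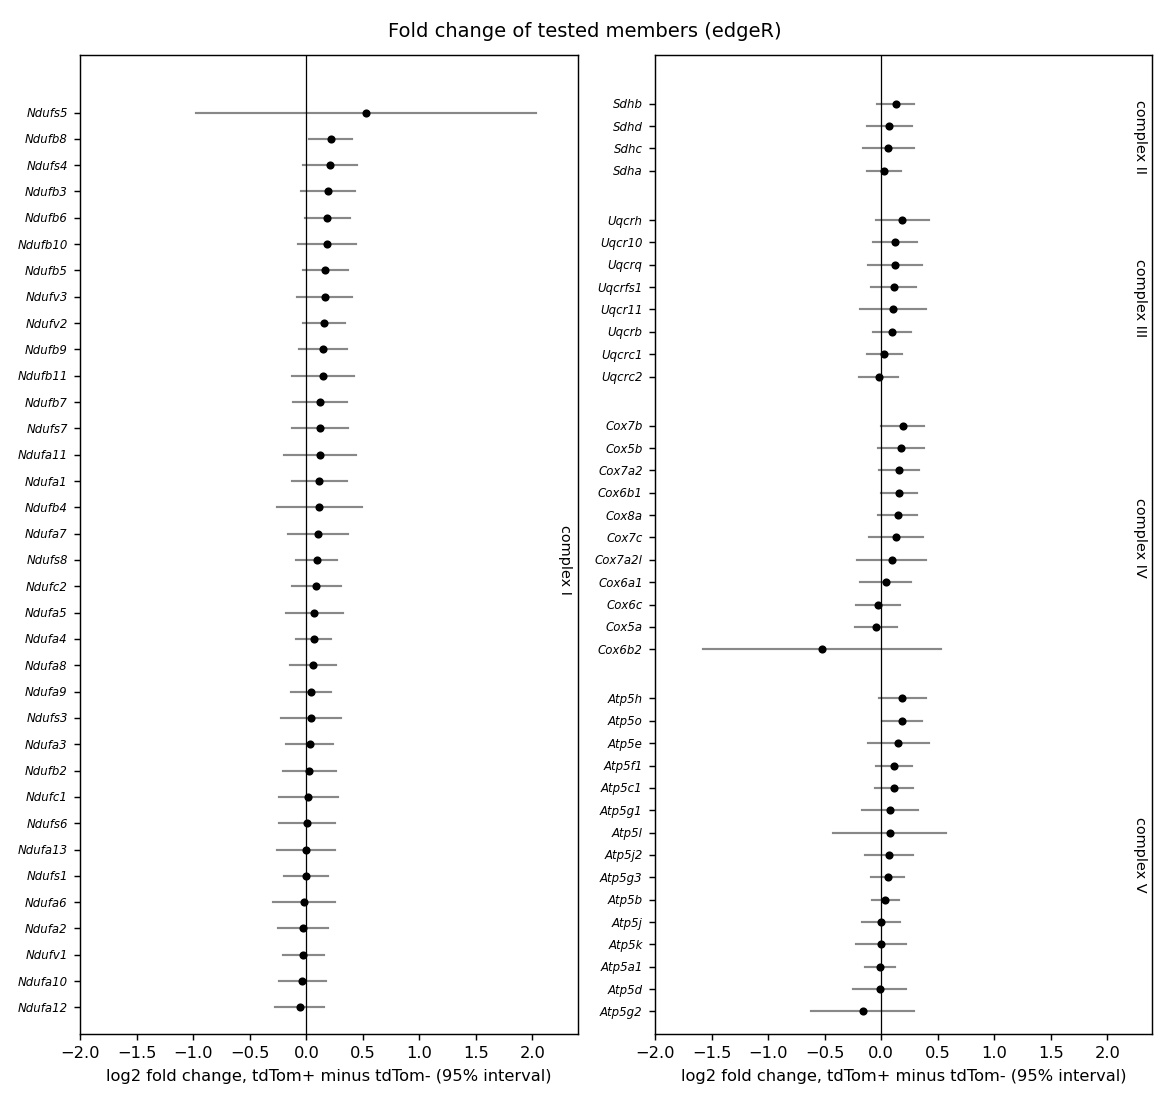
Fold change of the tested members reported here, tdTom+ minus tdTom- on the log2 scale (x axis), by respiratory complex (y axis, 1 row per gene), with the estimate as a point and its 95% interval from edgeR as a line. The points lie mostly just to the right of 0 with intervals that cross it in all but Ndufb8 and Atp5o, and Ndufs5 and Cox6b2 have by far the widest intervals.

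The estimates nonetheless leaned to one side. Of the 74 tested members, 58 (78.4%) had a log2 fold change above 0, where 50% of all tested genes did. The median was 0.0889 for the members and -0.0003 for all tested genes. Among genes with a mean of at least 50 CPM, 79.7% of the 69 members and 54.5% of all 5353 genes were above 0. The medians there were 0.0899 and 0.0158. By complex, the count above 0 was 29 of 36 in complex I, 4 of 4 in complex II, 7 of 8 in complex III, 8 of 11 in complex IV and 10 of 15 in complex V. The medians were 0.0889, 0.0677, 0.108, 0.130 and 0.0686 in that order, so that no complex stood far from the rest. The groups did not overlap for 11 members that were higher in tdTom+ (14.9%, against 7.88% of all tested genes) and for 1 that was lower (1.35%, against 9.35%).

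As a share of all counts, which needs no scaling factor, the 80 genes together took 1.5%, 1.66% and 1.57% of the tdTom+ libraries 1, 2 and 3 and 1.5%, 1.46% and 1.58% of the tdTom- libraries. The groups overlapped, and the mean was 1.58% ± 0.0812 (SD, n = 3) against 1.51% ± 0.0607 (SD, n = 3), a ratio of 1.04. Complex V, the ATP synthase, took the largest part, 0.552% against 0.537%, although it has fewer than 1 in 4 of the genes. Complex I took 0.515% against 0.490%, complex IV 0.218% against 0.206%, complex III 0.175% against 0.167% and complex II 0.117% against 0.113%. In every complex the difference between the means was smaller than the larger of both SDs. These shares are not set against length, so they say how reads and not transcripts were divided.

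**Figure D2:**
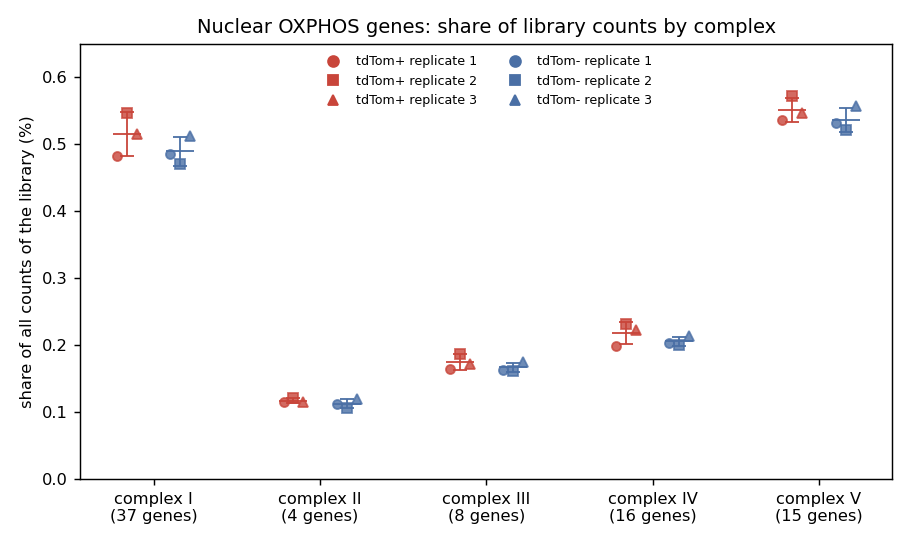
Share of all library counts taken by the genes of each respiratory complex (x axis) in percent (y axis), with 1 point per library (shape by number), a short line for the mean of each group and whiskers for its SD. The tdTom+ and tdTom- points overlap in every complex, and complexes I and V hold most of the counts.

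Complex I oxidises NADH in the matrix and pumps protons. The core subunits Ndufs1, Ndufs3, Ndufs7, Ndufs8, Ndufv1 and Ndufv2 carry the flavin and the iron-sulfur clusters or lie on the path of the electrons, and none of them passed the test. Ndufv1, which binds NADH and the flavin, was at 178, 184 and 187 CPM in tdTom+ and at 175, 184 and 200 CPM in tdTom- libraries 1, 2 and 3. The groups overlapped fully (log2 fold change -0.03 ± 0.0827 SE, adjusted p = 0.948 in edgeR). Ndufs1, the largest subunit of the peripheral arm, was at 179, 195 and 177 CPM against 172, 199 and 182 CPM, again with full overlap. Its log2 fold change was -0.0038, and those of Ndufs3, Ndufs7, Ndufs8 and Ndufv2 ran from 0.04 in Ndufs3 to 0.16 in Ndufv2. Ndufv2, which holds an iron-sulfur cluster beside Ndufv1, was the only one of these core subunits whose groups did not overlap, with adjusted p = 0.574 in edgeR.

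The smallest p of any member belonged to Ndufb8, an accessory subunit of the membrane arm that is often used as a protein marker of assembled complex I (ENSMUSG00000025204.10, protein-coding, GRCm38 chr19:44548572-44555440, minus strand). It was at 271, 317 and 308 CPM in tdTom+ and at 264, 239 and 270 CPM in tdTom-. The highest tdTom- library and the lowest tdTom+ library were less than 1 CPM apart. The log2 fold change was 0.21 ± 0.0857 SE, with adjusted p = 0.377 in edgeR. Its exons share 134 bases with Gm20538 on the same strand, so that reads there could count for either gene.

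Ndufb6, another membrane arm accessory subunit, was at 135, 148 and 147 CPM against 124, 120 and 134 CPM, and its groups were likewise just apart (log2 fold change 0.19, adjusted p = 0.521 in edgeR). Ndufs4, an accessory subunit that helps hold the NADH module on the complex, was at 125, 157 and 151 CPM against 132, 115 and 128 CPM. Its groups overlapped, and its log2 fold change of 0.21 had an adjusted p of 0.558 in edgeR. Over all 36 tested complex I genes the log2 fold change ran from -0.06 in Ndufa12 to 0.53 in Ndufs5.

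Complex II is succinate dehydrogenase, which also works in the citric acid cycle. Sdha, the flavin-bearing catalytic subunit, was at 464, 460 and 435 CPM in tdTom+ and at 445, 426 and 468 CPM in tdTom-. The groups overlapped, and the log2 fold change was 0.02 ± 0.0678 SE (adjusted p = 0.957 in edgeR). Sdhb, the iron-sulfur subunit, was at 279, 294 and 301 CPM against 278, 252 and 271 CPM, which left the groups just apart. The difference of 0.13 ± 0.0736 SE on the log2 scale missed the threshold (adjusted p = 0.622 in edgeR). The membrane anchors Sdhc and Sdhd had log2 fold changes of 0.06 and 0.07, each with overlapping groups. The intervals of all 4 stayed within 1.5-fold, and that of Sdha within 1.2-fold.

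Complex III passes electrons from ubiquinol to cytochrome c. The core protein Uqcrc1 was at 536, 612 and 575 CPM in tdTom+ and at 553, 548 and 589 CPM in tdTom-. The groups overlapped, with a log2 fold change of 0.03 ± 0.0704 SE (adjusted p = 0.942 in edgeR). The other core protein, Uqcrc2, was the only member of the complex below 0, at -0.02. Uqcrfs1, the Rieske iron-sulfur protein, had a log2 fold change of 0.11 with adjusted p = 0.759 in edgeR. Uqcrh, the hinge protein at the cytochrome c side, was at 160, 198 and 152 CPM against 145, 150 and 153 CPM. Only tdTom+ library 2 was well above the rest, and the adjusted p was 0.609 in edgeR. Uqcrb, a small ubiquinone-binding subunit, had the tightest groups, at 182, 191 and 187 CPM against 174, 173 and 177 CPM. Those groups did not overlap, but the log2 fold change was only 0.09 ± 0.0756 SE (adjusted p = 0.750 in edgeR), and 43.2% of its 50-base stretches also occur in transcripts of other genes.

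Complex IV, cytochrome c oxidase, reduces oxygen. Its catalytic core is encoded by mitochondrial DNA, and the nuclear subunits surround it. Of 16 members 11 were tested and 5 had too few counts. Cox7b, a small X-linked subunit, was at 198, 228 and 208 CPM in tdTom+ and at 195, 189 and 173 CPM in tdTom-. The groups were just apart, and the log2 fold change was 0.19 ± 0.0868 SE with adjusted p = 0.479 in edgeR. Cox6b1, which joins the monomers of the enzyme, was at 340, 358 and 365 CPM against 316, 301 and 338 CPM, with groups again just apart (log2 fold change 0.15, adjusted p = 0.497 in edgeR). The structural subunits Cox5a and Cox5b had log2 fold changes of -0.05 and 0.17, both with adjusted p above 0.05 in edgeR, at 0.916 and 0.573.

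Several complex IV subunits have paralogues with tissue-restricted use. In both groups the broadly expressed forms made up nearly all of the signal per exon length. Cox6a1 was 100% of the Cox6a pair in tdTom+ and 99.9% in tdTom-, Cox6b1 99.2% and 98.8% of its pair, Cox7b 100% and 99.7% of its pair, and Cox8a 100% and 99.98% of the Cox8 genes. Cox7a2 made up 85.8% and 85.2% of the Cox7a set, and Cox7a2l, which helps assemble supercomplexes, 13.9% and 14.5%. The heart and skeletal muscle forms Cox7a1 and Cox8b were near or at 0, with 4, 6 and 9 against 3, 9 and 9 counts for Cox7a1 and no count for Cox8b in any library.

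The testis forms and Cox6a2 had few counts, with more of them in the tdTom- libraries. Cox6b2, a testis form, had counts of 30, 31 and 46 against 46, 62 and 39 in tdTom-, or 2.63, 2.84 and 4.30 against 4.46, 5.25 and 4.37 CPM. It was the single member whose groups did not overlap in the lower direction, and the difference of -0.53 ± 0.476 SE on the log2 scale missed the threshold (adjusted p = 0.785 in edgeR). Cox7b2, another testis form, had 0 counts in all tdTom+ libraries and 2, 6 and 2 in tdTom-. Against a floor of 3 counts over the tdTom+ group this is 3.54-fold lower in tdTom+, with no test. The floor covers the counting error of the 0 in tdTom+ alone, and the few tdTom- counts were taken as they are. Cox6a2, the heart and muscle form, had 0 counts in tdTom+ and 4, 3 and 1 in tdTom-, which is 2.84-fold lower by the same floor. Cox8c had 1 count in all. Beside these, the summed germ cell markers were at 3.07 to 3.20 CPM in tdTom+ and 74.9 to 140 CPM in tdTom-, with Dazl and Dppa3 at 0 counts in every tdTom+ library and 115 to 279 in the tdTom- libraries. The summed muscle markers were at 29.0 to 40.0 CPM against 46.8 to 73.3 CPM. The part of germ or muscle cells in the paralogue counts was not tested.

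Complex V makes ATP. Its catalytic subunit Atp5b, the beta subunit of the F1 head (ENSMUSG00000025393.12, protein-coding, GRCm38 chr10:128083273-128090391, plus strand), had the highest level per exon length of coding transcripts of all the members. It was at 1701, 1807 and 1702 CPM in tdTom+ and at 1685, 1647 and 1748 CPM in tdTom-. The groups overlapped, and the fold change was 1.03 with a 95% interval of 0.942 to 1.12 (adjusted p = 0.898 in edgeR). Its alpha partner Atp5a1 was at 1050, 1015 and 965 CPM against 1009, 1002 and 1039 CPM, with a log2 fold change of -0.0094 ± 0.0590 SE, the tdTom- values lying inside the range of the tdTom+ values. Atp5c1, the gamma stalk that turns inside the head, had a log2 fold change of 0.11 with adjusted p = 0.699 in edgeR.

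Atp5o, the OSCP subunit that ties the F1 head to the peripheral stalk (ENSMUSG00000022956.11, protein-coding, GRCm38 chr16:91925214-91931687, minus strand), was at 279, 289 and 280 CPM in tdTom+ and at 253, 227 and 268 CPM in tdTom-. The tdTom+ libraries were close together and all above the tdTom- libraries. The log2 fold change was 0.18 ± 0.0800 SE, with adjusted p = 0.454 in edgeR. The stalk subunits Atp5h and Atp5f1 had log2 fold changes of 0.19 and 0.11, with adjusted p = 0.538 and 0.666 in edgeR. Subunit c of the rotor ring is encoded by Atp5g1, Atp5g2 and Atp5g3, whose mature proteins are identical. Atp5g3 gave 92.7% ± 0.727 of their summed signal per exon length in tdTom+ and 92.2% ± 0.730 in tdTom- (SD, n = 3 each). Atp5g1 gave 3.30% and 3.24% and Atp5g2 3.98% and 4.6%, but 87.4% of the 50-base stretches of Atp5g2 also occur in other transcripts. The smaller shares depend on the exon lengths. By CPM without any length, Atp5g1 gave 18.8% and 18.5%, Atp5g2 3.37% and 3.91% and Atp5g3 77.8% and 77.6%. The exons of Atp5g1 were 4912 bp with coding or with all annotated transcripts, against 724 and 2181 bp in Atp5g3. With the exons of all annotated transcripts in place of those of coding transcripts, Atp5g1 gave 9.22% and 9.03%, Atp5g2 4.85% and 5.61% and Atp5g3 85.9% and 85.4%, so that the order of Atp5g1 and Atp5g2 turned round.

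The lean toward tdTom+ was not even over the libraries. The median deviation of the tested members from their own mean over all 6 libraries, in log2 CPM, was -0.0525, 0.137 and 0.0394 in tdTom+ libraries 1, 2 and 3 and -0.0467, -0.0865 and 0.0245 in the tdTom- libraries. Library 2 of tdTom+ thus lay highest and library 2 of tdTom- lowest, while tdTom+ library 1 lay below tdTom- libraries 1 and 3. Library 2 of tdTom+ was the highest of the 6 in 49 of 74 members (66.2%, against 20.8% of all tested genes). Library 2 of tdTom- was the lowest in 34 (45.9%, against 14.3%). Without tdTom+ library 2, the median log2 fold change of the members was 0.0283 with 48 of 74 above 0, and without tdTom- library 2 it was 0.0557 with 53 above 0. Without any other single library the median was 0.0764 to 0.121.

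**Figure D3:**
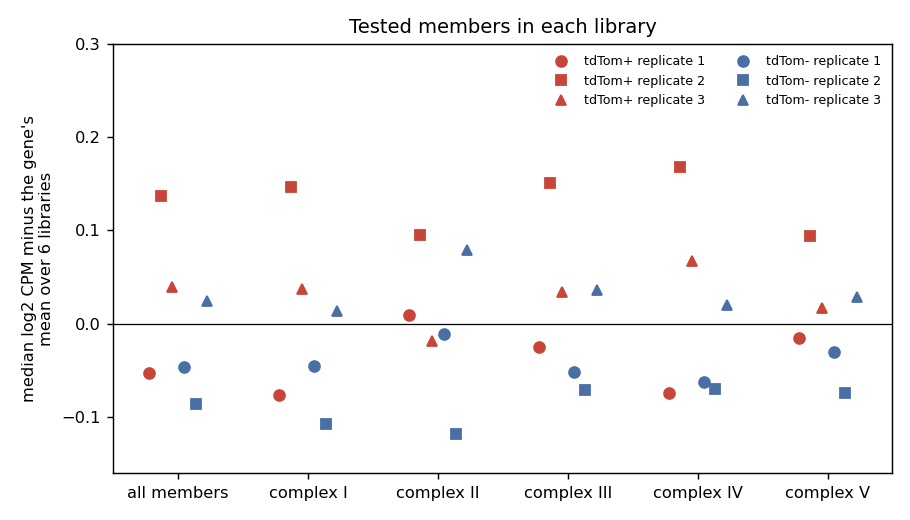
Median over the tested members of log2 CPM minus the gene's own mean over the 6 libraries (y axis), for all members and for each respiratory complex (x axis), with 1 point per library. Over all members the point is highest in tdTom+ library 2, at 0.137, and lowest in tdTom- library 2, at -0.0865.

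Members are short transcripts, and other short, abundant genes leaned the same way. The median exon length was 992 bp for the tested members and 3350 bp for the 12388 tested genes with a length. Among members under 750 bp the median log2 fold change was 0.105 (25 genes), and among other genes of that length with at least 50 CPM it was 0.0742 (60 genes, 76.7% above 0). From 750 to 1000 bp it was 0.134 for 12 members and 0.0985 for 107 other genes (78.5% above 0). From 1000 to 1500 bp it was 0.0726 for 17 members and 0.0459 for 405 other genes. From 1500 to 2500 bp the members stayed at 0.0885 (14 genes), with the other 1058 genes at 0.0158. Longer members were too few to read, with 6 in all. The median deviation of tdTom+ library 2 in other abundant genes was likewise higher in short ones, at 0.121 under 750 bp and 0.125 from 750 to 1000 bp, and was -0.0202 over 4000 bp. The part of transcript length in the members' lean was not tested.

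**Figure D4:**
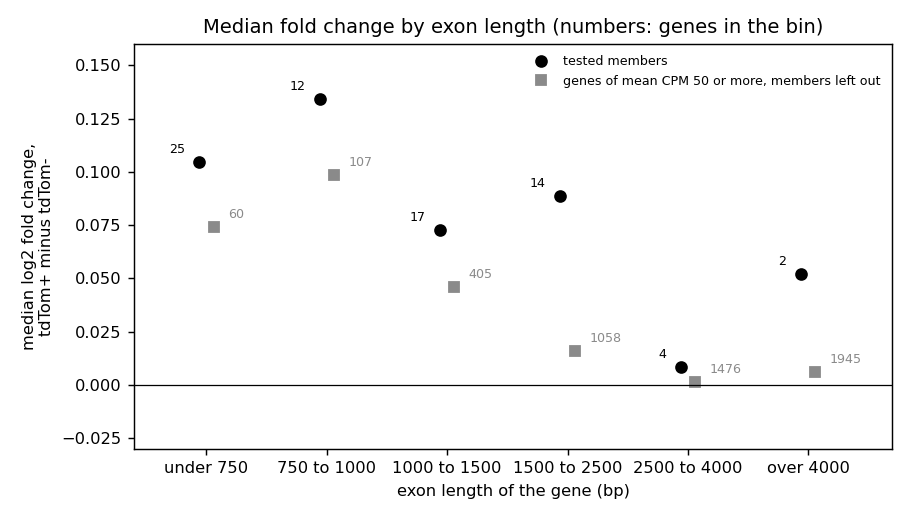
Median log2 fold change, tdTom+ minus tdTom- (y axis), by exon length in bp (x axis, bins), for the tested members and for all other genes of at least 50 CPM, with the number of genes beside each point. Both sets lie above 0 in every bin, with the other genes at 0.0011 and 0.0058 in the bins from 2500 bp on. The bins of the longest members hold only 4 and 2 genes.

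Levels per exon length ranged widely among subunits that are present in the complexes in fixed ratios. Over all 6 libraries, RPKM, which is CPM divided by the exon length in kilobases, ran from 2.12 in Ndufs5 to 895 in Atp5b, with a median of 170 over the 74 tested members. The median was 121 in complex I, 182 in complex II, 276 in complex III, 216 in complex IV and 266 in complex V. The highest members were Ndufa4 (419 RPKM), Sdhb (244), Uqcr10 (384), Cox6a1 (592) and Atp5b (895) in the order of the complexes. With the exons of all annotated transcripts in place of those of coding transcripts, Ndufa4 ranked 5 and Sdhb 2 within their complexes, while Uqcr10, Cox6a1 and Atp5b again ranked 1. The median over the tested members was then 108 RPKM, Atp5b was at 405 RPKM, and Cox6a1 (481), Cox6b1 (475) and Cox8a (407) lay above it. Levels and their order over all members thus depend on the transcripts used, which was an alternative chosen after the data had been seen.

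**Figure D5:**
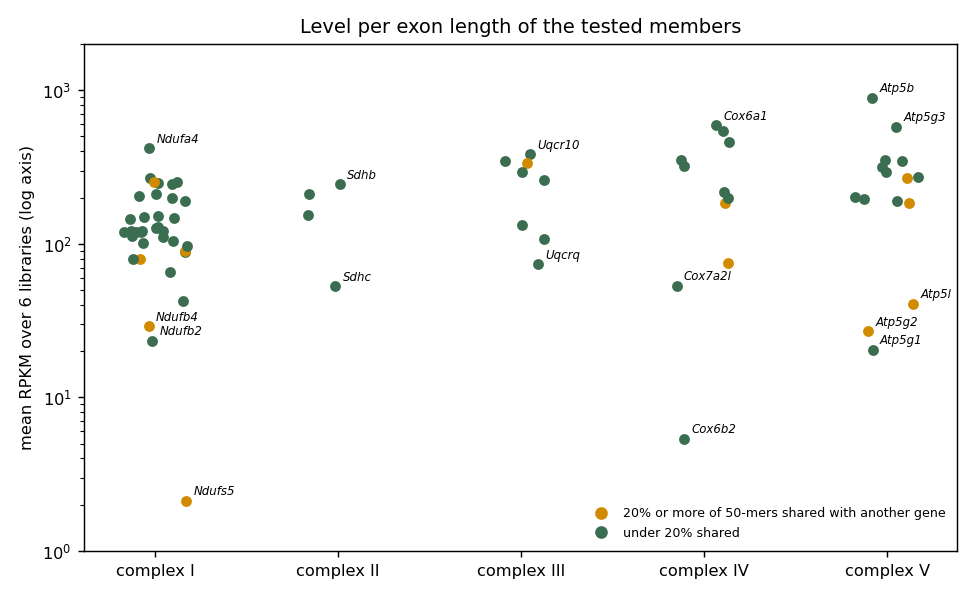
Level of each tested member in RPKM on a log axis, as the mean over the 6 libraries, by respiratory complex, with members that share at least 20% of their 50-base stretches with other genes marked. Most members lie in a band around the median of 170 RPKM, and Ndufs5 and Cox6b2 lie far below.

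Several members share sequence with other genes. In 12 of the 74 tested members at least 20% of the 50-base stretches also occur in transcripts of other genes, mostly processed pseudogenes. The median of these 12 was 84.9 RPKM, against 189 RPKM in the other 62 and 189 RPKM in the 37 with none shared. Within the 12, Uqcrb (337 RPKM), Atp5h (266), Ndufb9 (253), Atp5f1 (185) and Cox5b (185) lay above the median of all tested members. The 12 include Atp5g2 at 87.4%, Atp5l at 68.5%, Uqcrb at 43.2%, Atp5h at 38.8% and Ndufb4 at 37.0%. Ndufs5, a small accessory subunit of complex I (ENSMUSG00000028648.13, protein-coding, GRCm38 chr4:123712710-123718202, minus strand), had only 18, 26 and 27 counts against 21, 13 and 12 in tdTom-, while 22.9% of its stretches occur in the pseudogene BC002163. That pseudogene had 60, 64 and 62 counts in tdTom+ and 62, 74 and 49 in tdTom-, more than Ndufs5 in every library. Exons of 20 tested members overlap those of another gene, on the same strand in Ndufb8 and on the opposite strand in the others, which include Atp5o (164 bp), Ndufb6 (257 bp) and Atp5j, whose partner is Gabpa (182 bp). The sources used here do not say how reads that map to several places were counted, and the part of shared sequence in these levels was not tested.

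Nuclear genes of the respiratory chain are known targets of the factors NRF1 and GABP, an ETS factor, and of YY1. RefSeq promoter windows of GRCm38.p6, from 250 bases before to 50 after a start site, were matched to 67 of the 80 genes. The letters GCGCA, any base and GCGC (NRF1), CCGGAAG (ETS and GABP) and AAGATGGCG (YY1) were searched on both strands, and no match overlapped another kind. At least 1 of the motifs was found in 34 of 67 members (50.7%), against 15.1% of 27025 genes with a window. Among tested members it was 34 of 64 (53.1%), against 30.5% of 9454 other tested protein-coding genes. By motif, the tested members held NRF1 letters in 26.6%, ETS letters in 25% and YY1 letters in 10.9%, against 11.3%, 19.4% and 3.45% in those other genes. A gene with more than 1 window counted where any of its windows matched. By complex, any motif was found in 15 of 32 genes in complex I, 3 of 3 in complex II and 3 of 5 in complex III. In complex IV it was 3 of 13 genes and in complex V 10 of 14. NRF1 letters began at a median of 46 bases before the start and ETS letters at 20 before it, whereas YY1 letters began at a median of 24 after it. A match of letters is a description and no evidence of binding.

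The following stretches, 5′ to 3′ on the gene's strand from RefSeq GRCm38.p6, show what such promoters look like in 4 of the complexes. Each is the longest stretch without annotated exon bases in the 200 bases before the start site, and the member shown is the one with the most motifs there, ties going to the smallest p. No such stretch of at least 100 bases in complex II held a motif. Capitals mark NRF1 letters in Ndufs5, Cox6a1 and Atp5h and ETS letters in Uqcrh, on either strand. The stretches are Ndufs5 at chr4:123718203-123718386, Uqcrh at chr4:116075072-116075268, Cox6a1 at chr5:115348982-115349129 and Atp5h at chr11:115419963-115420119, all on the minus strand.
Ndufs5: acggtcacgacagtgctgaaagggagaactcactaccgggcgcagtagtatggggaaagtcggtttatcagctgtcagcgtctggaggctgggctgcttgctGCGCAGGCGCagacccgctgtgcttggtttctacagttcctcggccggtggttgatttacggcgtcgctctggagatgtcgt
Uqcrh: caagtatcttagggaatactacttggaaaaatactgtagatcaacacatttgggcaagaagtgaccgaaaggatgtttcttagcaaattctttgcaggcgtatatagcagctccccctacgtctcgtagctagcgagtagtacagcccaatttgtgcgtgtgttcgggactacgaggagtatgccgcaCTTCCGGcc
Cox6a1: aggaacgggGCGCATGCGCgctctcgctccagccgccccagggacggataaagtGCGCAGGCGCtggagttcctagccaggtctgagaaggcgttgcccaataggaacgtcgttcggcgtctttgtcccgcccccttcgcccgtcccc
Atp5h: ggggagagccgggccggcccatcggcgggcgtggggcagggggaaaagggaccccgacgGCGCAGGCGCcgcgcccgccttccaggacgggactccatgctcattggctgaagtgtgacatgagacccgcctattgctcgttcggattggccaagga
The motif begins 98 bases before the start site in Ndufs5, 10 before it in Uqcrh, 162 and 117 before it in Cox6a1 and 141 before it in Atp5h. The genes that carry these stretches span nearly the whole range of levels, from Ndufs5 at 2.12 RPKM to Cox6a1 at 592 RPKM. None of the 4 genes passed the test between the groups.

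No other gene of the pathway lists passed the test. Of 9 tested subunits outside the symbol rule, 0 passed in either direction, with a median log2 fold change of 0.113 and 7 of 9 above 0. Cox4i1, the largest nuclear subunit of complex IV, was at 463 ± 41.8 CPM in tdTom+ and 419 ± 21.2 CPM in tdTom- (SD, n = 3 each), with a log2 fold change of 0.15 and adjusted p = 0.596 in edgeR. Cytochrome c itself, Cycs, had 0.18 and adjusted p = 0.662 in edgeR, and Usmg5, a small ATP synthase subunit, 0.17 and 0.603. Of 39 tested assembly factors 0 passed, with a median of 0.0534, and the smallest p belonged to Tmem70, which helps assemble ATP synthase, at 0.28 ± 0.116 SE (adjusted p = 0.398 in edgeR). Tmem126b, an assembly factor of complex I, and Cox10, which makes heme for complex IV, had 0.30 and 0.26, neither past the threshold. None of the 13 mitochondrially encoded subunits was found under its usual symbol, and they were not analysed here.

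Of 15 tested regulators of mitochondrial biogenesis, 0 passed in either direction, with a median log2 fold change of 0.0894 and 8 of 15 above 0. Gabpa, the DNA-binding part of GABP, was at 104 ± 14.4 CPM in tdTom+ and 86.5 ± 10.1 CPM in tdTom- (SD, n = 3 each), with a log2 fold change of 0.26 and adjusted p = 0.543 in edgeR. Tfam, which packs and transcribes mitochondrial DNA, had a log2 fold change of 0.34 (adjusted p = 0.623 in edgeR), and its highest value was in tdTom+ library 3, with 905 counts against 404 to 590 in the other libraries. Ppargc1a, the coactivator best known for driving biogenesis in muscle, liver and brown fat, stood apart at very low counts. Its counts were 3, 0 and 1 in the tdTom+ libraries and 25, 21 and 13 in the tdTom- ones, so the groups did not overlap. The log2 fold change was -3.85 ± 1.08 SE with adjusted p = 0.141 in edgeR, and DESeq2 gave an adjusted p of 0.0463. With a minimum count of 30 the gene was not tested. Over the other alternatives its adjusted p ran from 0.0463 to 0.580, and DESeq2 was the only one of these under 0.05. The log2 fold change was -5.03 without tdTom+ library 1 and -3.31 without tdTom+ library 2. Beside it, the summed muscle markers were at 29.0 to 40.0 CPM in tdTom+ and 46.8 to 73.3 CPM in tdTom-. The hepatoblast markers were at 161 to 175 against 210 to 457 CPM and the germ cell markers at 3.07 to 3.20 against 74.9 to 140 CPM. The mesenchymal markers were at 179 to 676 against 482 to 1138 CPM and the neural markers at 253 to 278 against 293 to 317 CPM. The macrophage, erythroid and megakaryocyte lists had median log2 fold changes above 0. The part of such cells in the Ppargc1a difference was not tested.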

How the data were processed

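RNA of sorted cells was amplified with a SMART-seq v4 kit and made into libraries with Nextera XT, per the labels' protocols. Without giving roles or order, the submitters' processing notes list the mm10 build and the tools featureCounts 1.4.6, STAR 2.5.2b, DESeq2, Trimmomatic 0.36.4 and Picard 2.7.1.1. The deposited table holds raw read counts per gene symbol as the authors made them, beside columns of the authors' own p-value and log2 fold change, the sign of which was turned to tdTom+ minus tdTom-. The 6 normalized per-sample columns were not used. The kit does not mark strand and adds no molecular identifiers, so reads of a gene and its antisense partner cannot be told apart. Floors cover only counting error, and only in the group without counts.

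Groups came from the sample titles, with 3 libraries each. The test was the two-sided quasi-likelihood F-test of edgeR 4.0.16 (R 4.3.3), fitted robustly on counts with TMM scaling after filterByExpr at its minimum count of 10, with Benjamini-Hochberg adjustment over 13142 genes. An SE is the log2 fold change over the square root of F. CPM use TMM-scaled library sizes, RPKM the merged exons of coding transcripts in GENCODE M21 (GRCm38), and deviations a prior count of 2. No pair of libraries of a group agreed within sampling noise. Alternatives were other scalings, low-count filters, DESeq2 1.42.0, limma 3.58.1 (voom), a replicate block and leaving out each library. The members and lists were chosen with earlier results of these data known. Named were the 3 members of each complex with the smallest p, the core subunits, the paralogue sets and the 3 smallest p of each other pathway list. The limits of 0.25 in log2 and 50 CPM, the length bins, the limit of 20% shared stretches and the rule for printed stretches were set after values had been seen, and Ndufs5, BC002163 and members named at the ends of ranges were chosen the same way. Values of 1 gene are not reported here, although it is in the counts and medians.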

Additional observations from a re-analysis of the deposited data

How the results depend on the processing

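Under every alternative run, 0 of the tested members were called in either direction. With DESeq2, 217 genes over the whole table were higher and 267 lower, and with the replicate block 128 were higher and 167 lower. Without each library in turn, 37 to 97 genes were higher and 25 to 92 lower, both counts lower by more than 1.5 times without tdTom+ library 1 (61 and 65) and tdTom- libraries 1 (51 and 32), 2 (43 and 28) and 3 (37 and 25). The members' median log2 fold change was 0.0731 to 0.0905 under other scalings, filters and tests, with 57 to 59 members above 0, and 0.0283 to 0.121 without each library, with 48 to 68 above 0. With no low-count filter the complex IV median was 0.0362, since members with a few counts enter it. Leaving out each library gave 0.00601 to 0.0912 for complex V, the lowest without tdTom+ library 2, and 0.0302 to 0.126 for complex I, 0.0148 to 0.137 for complex II, 0.0494 to 0.152 for complex III and 0.0750 to 0.180 for complex IV. The members' share differed by 0.0225 to 0.104 percentage points without each library. Between 3 and 10 members changed sign when a library was left out and at most 1 under another scaling. Same-numbered libraries deviated together at r = 0.105, 0.0892 and 0.161 for numbers 1, 2 and 3. Every library correlated best with its own number, a hint from the data, but number 2 fell short of 0.1, so the numbers were not taken to pair the libraries, and under the replicate block the members' median was 0.0869. Low counts limit what can be read from Ndufs5, Cox6b2 and the 6 members not tested. Those 6 had at most 10 counts in a library. The part of depth in these low counts was not tested. With the exons of all annotated transcripts, an alternative chosen after seeing the data, the members' median level was 108 RPKM in place of 170.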
